A study of Homo sapiens with 6 samples.

Results

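The proteasome subunits were examined in HEK293 cells given an inhibitor of phosphatidylinositol 4-kinase alpha. They were taken as the rows of the deposited count table whose symbol begins with PSM, followed by one letter from A to G and a number, and which had at least 10 counts in 3 or more libraries. The pattern matched 48 of the 63140 rows, and 42 of them reached the count minimum. Just inside the minimum lay PSMA2, with 43 to 75 counts per library. PSMB10 lay just outside, with 4 to 11 counts and only 2 libraries at 10 or more.

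HEK293 cells are a long-established line from human embryonic kidney. According to the labels' protocols, they were treated at confluence with 100 nM GSK-A1 for 24 h or with its vehicle dimethyl sulfoxide (DMSO) for an equal time. GSK-A1 is a small molecule that inhibits the enzyme encoded by PI4KA, a lipid kinase that works at the plasma membrane. Each group held 3 libraries that the labels call biological replicates, with no word on whether cultures were grown or treated on separate days, so the p-values measure the spread between these libraries.

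Library totals ranged from 33040178 to 47777233 counts. Of the 6 chosen HEK293 markers, VIM, KRT8, KRT18, NEFL and CDH2 were at 93.9 CPM or more with DMSO (counts scaled to the size of the library), and NEFM was at 0.14 CPM. Among 8 markers of other cell types, PTPRC, CD3E, ALB, APOA1, PECAM1 and CDH5 were at 0.13 CPM or less in the mean of either group. COL1A1 and COL3A1 were detected at 6.81 and 9.69 CPM with DMSO, and COL3A1 was called lower with GSK-A1. Of the HEK293 markers, VIM and KRT8 were called higher with GSK-A1, while KRT18, NEFL and CDH2 were not called. GSK-A1 replicate 2 stood apart from the other libraries of its group: the chi-square statistic per gene was 10.98 and 15.5 for its pairs with GSK-A1 replicates 1 and 3, against 2.88 for that pair, so counts are also given without it where that changes them.

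The proteasome degrades proteins that carry a ubiquitin chain. Its 20S core is a stack of rings built of alpha subunits, which form the gate, and of beta subunits, some of which carry the proteolytic sites. The 19S cap binds ubiquitin, removes it and unfolds the substrate with a ring of ATPases, other activators can take the place of the cap, and dedicated chaperones assemble the particle. Cells usually make the subunits in concert, and the transcription factor NFE2L1 raises their genes when proteasome activity falls.

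Levels of the members under DMSO are compared here as CPM per kb of the APPRIS principal transcript in GENCODE 29, since longer mRNAs give more counts. On that scale the 7 constitutive beta subunits lay close together, from 88.3 for PSMB2 to 221 for PSMB1. The ATPases ranged from 17.1 for PSMC1 to 89.4 for PSMC5, and the lid subunits from 20.4 for PSMD12 to 154 for PSMD8. Where several principal transcripts ranked alike the longest was taken, so these ranges depend on transcript choice. The lengths were 4448 and 4406 bases for PSMC1 and PSMD12, against 1579 and 1553 for PSMC5 and PSMD8. In plain CPM with DMSO, PSMC1 stood at 76.0 and PSMC6 at 62.0. Among the alpha subunits PSMA7 stood at 136 CPM per kb, PSMA3 at 89.0, PSMA4 at 44.8 and PSMA5 at 27.4. These had no same-strand overlap, and the principal transcripts of PSMA4 and PSMA5 were long, at 4411 and 3729 bases. PSMA1, PSMA6 and PSMA2 stood at 17.7, 9.89 and 0.92. All 7 alpha subunits are obligatory parts of the same ring. Of the principal transcript of PSMA1, 53.2% lay in exons that a neighbouring gene shares on that strand, and the share was 52.5% for PSMA2, 80.95% for PSMA6 and 43.8% for PSMD9, which stood at 4.48 CPM per kb. The overlapping rows themselves held few counts: 0 over all 6 libraries for the gene that overlaps PSMA1, 15 for PSMA2, 14 for PSMA6 and 8 for PSMD9. For PSMB10, described next, the overlapping row held 143 counts and PSMB10 itself 42. The part of this overlap in the low values was not tested, and the values of these 4 members are uncertain as levels.

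**Figure D1:**
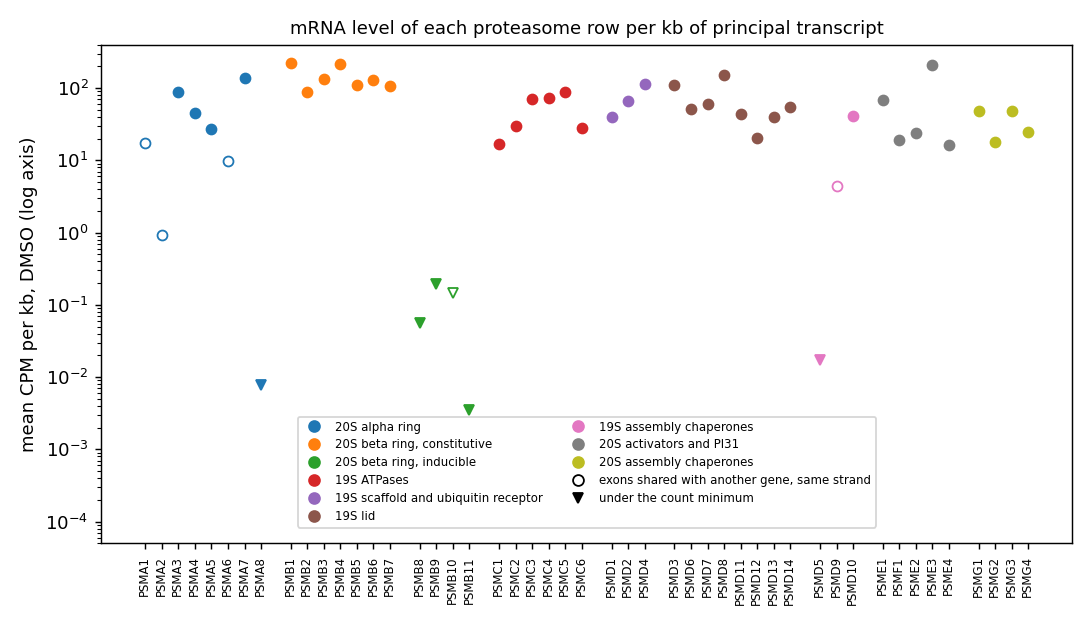
Mean level of each of the 48 rows with DMSO, in CPM per kb of principal transcript on a log axis, by subcomplex; open symbols mark rows whose principal transcript shares exon sequence with another gene on the same strand, and triangles mark the 6 rows under the count minimum. The constitutive beta subunits lie between 88.3 and 221, while the inducible beta subunits lie at 0.19 or lower.

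The inducible beta subunits, which replace the catalytic ones in the immunoproteasome of interferon-treated and immune cells, lay under the count minimum in all cases. PSMB8 had 1, 5 and 2 counts in DMSO replicates 1 to 3 and 3, 1 and 3 with GSK-A1. PSMB9 had 5, 5 and 8 counts with DMSO and 8, 5 and 2 with GSK-A1. PSMB10 had 6, 5 and 10 with DMSO and 4, 6 and 11 with GSK-A1, and exons on the same strand covered 45.3% of its principal transcript, so its level is uncertain too. The groups overlapped for each of them and no fold is given at such counts. Under DMSO the level of PSMB8 was 0.057 CPM per kb beside 111 for PSMB5, which it replaces, that of PSMB9 was 0.19 beside 130 for PSMB6, and that of PSMB10 was 0.15 beside 109 for PSMB7. TAP1, a peptide transporter gene in the same gene cluster as PSMB8 and PSMB9, was counted at 23.4 CPM. The tissue-specific subunits PSMB11 of the thymus and PSMA8 of the testis had at most 1 count in any library. The chaperone PSMD5 had 1 to 5 counts per library with no same-strand overlap in GENCODE 29. The annotation release used for the counts is not known, so the PSMD5 level is uncertain as well.

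With GSK-A1 the proteasome members as a group changed little. Together they took 0.482%, 0.466% and 0.463% of the scaled counts in DMSO replicates 1 to 3 and 0.470%, 0.464% and 0.457% in GSK-A1 replicates 1 to 3. Their summed level was 4705 ± 100.3 CPM with DMSO and 4636 ± 61.7 CPM with GSK-A1 (SD, n = 3), a change of -1.47% with overlapping groups. Such shares of a library do not measure the number of cells or RNA per cell, so they cannot show a change in absolute amount.

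Gene by gene, 6 of the 42 members were called by edgeR's quasi-likelihood test (Benjamini-Hochberg adjusted p under 0.05 over the 16754 genes tested), 2 higher and 4 lower with GSK-A1. That is 14.3% of the members, where 22.9% of all tested genes were called, 12.0% higher and 10.9% lower. At an unadjusted p under 0.05 there were 10 of the 42 members and 6001 of the 16754 tested genes. The groups did not overlap for 5 members that were higher (11.9%) and 8 that were lower (19.05%) with GSK-A1, against 20.2% and 20.4% of all tested genes. The median log2 fold change (GSK-A1 over DMSO) of the members was -0.01 and that of all tested genes -0.01, while the median size of the change, whatever its sign, was 0.04 for the members and 0.12 for all tested genes.

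The precision of these libraries bounds most of the remaining members. Standard errors of the log2 change had a median of 0.04 over the members. For 33 of the 36 members not called, the 95% interval of the change lay within 1.2-fold of the DMSO level in either direction. PSMA1, PSMA2 and PSMD9, which share exons with another gene as above, were the other 3.

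The counts of calls moved with single libraries and with scaling. Without DMSO replicate 1, where the median member lay 0.03 above the DMSO mean on the log2 scale, only PSME4 and PSME3 remained called while 12.9% of all tested genes were. Without GSK-A1 replicate 2 there were 3 members called higher and 4 lower, beside 28.1% of all tested genes. With upper-quartile factors in place of TMM factors, 9 members were called lower and 2 higher, and the share of calls over all genes that were higher went from 52.3% to 33.25%.

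**Figure D2:**
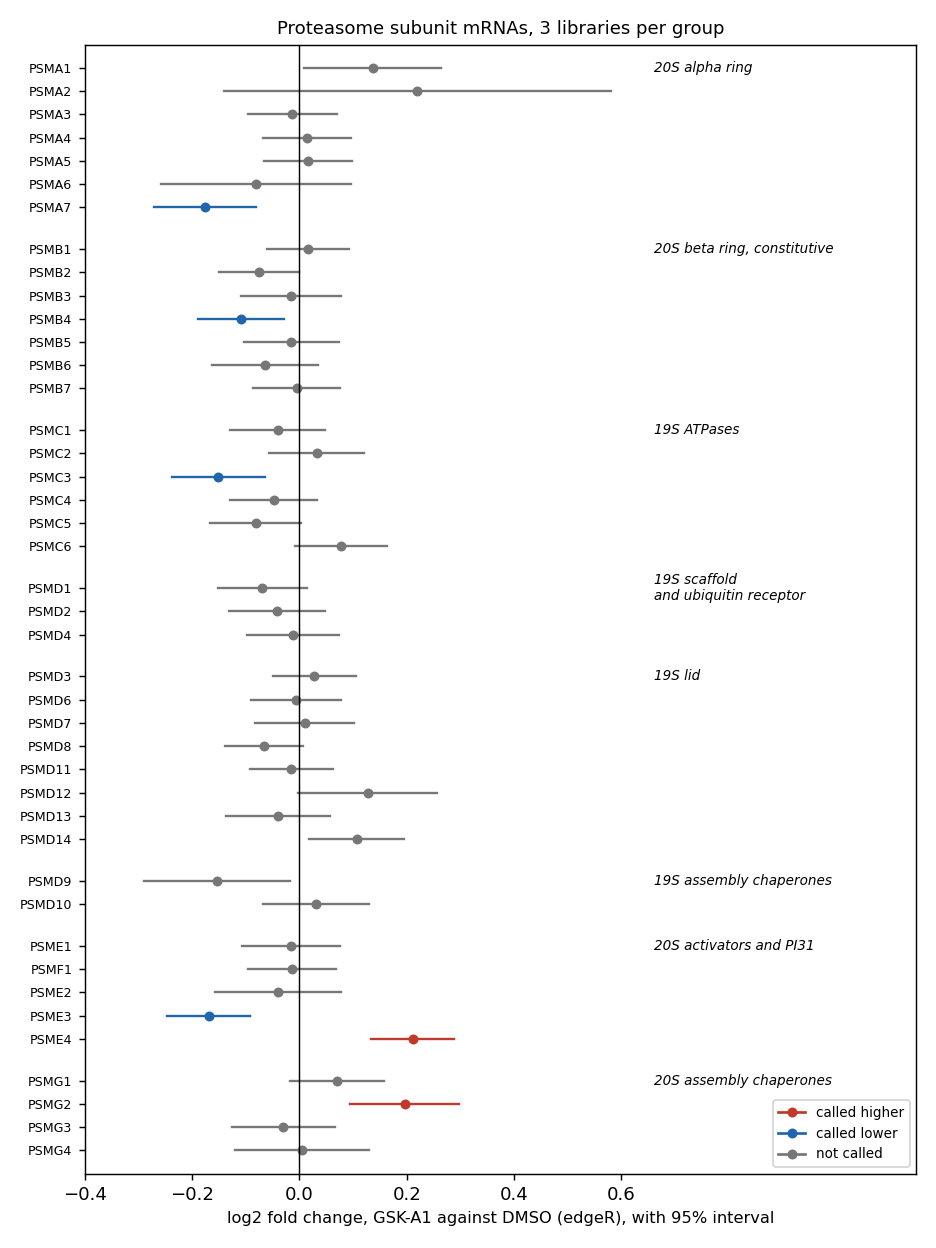
Log2 fold change of GSK-A1 against DMSO for the 42 members by subcomplex, with the 95% interval of the edgeR fit (3 libraries per group). Red marks the 2 members called higher and blue the 4 called lower; PSMA2 has the widest interval.

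In the alpha ring, 1 of 7 members was called and it was lower. PSMA7 (ENSG00000101182, chr20:62136735-62143440, minus strand, GRCh38 in GENCODE 29 as for the genes below), an alpha ring subunit, had 144, 135 and 128 CPM in the DMSO libraries, in replicate order here and below, against 123, 121 and 116 CPM with GSK-A1. All 3 GSK-A1 libraries lay below the lowest DMSO library. Its log2 change was -0.18 ± 0.04 (SE; edgeR adjusted p = 0.00993), and it was -0.13 without DMSO replicate 1 (edgeR adjusted p = 0.0833). The other 6 alpha subunits ran from -0.08 for PSMA6 to 0.22 for PSMA2, with PSMA3, PSMA4 and PSMA5 at -0.01, 0.01 and 0.02. The PSMA2 value ran from 0.11 to 0.34 when single libraries were dropped and was not called in any of these fits. PSMA1 was at 26.6, 27.0 and 26.2 CPM with DMSO and 28.3, 32.3 and 27.3 with GSK-A1, a difference of 0.14 that was not called (edgeR adjusted p = 0.113). It passed at 0.19 when GSK-A1 replicate 3 was left out (edgeR adjusted p = 0.0403) and was at 0.07 when GSK-A1 replicate 2 was left out (edgeR adjusted p = 0.310).

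Among the 7 constitutive beta subunits, PSMB4 (ENSG00000159377, chr1:151399534-151401944, plus strand), a structural subunit without a proteolytic site, was called lower. It was at 216, 206 and 205 CPM with DMSO and at 200, 187 and 194 CPM with GSK-A1, so the groups did not overlap. Its log2 change of -0.11 ± 0.04 passed narrowly (SE; edgeR adjusted p = 0.0479) and did not pass under 11 of 16 alternative settings, where the value kept its sign. PSMB1, PSMB3 and PSMB2, which also lack a proteolytic site, were at 0.02, -0.02 and -0.08.

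The genes for the catalytic beta subunits were not called. PSMB5, which carries the chymotrypsin-like site targeted by bortezomib, was at 150, 141 and 140 CPM with DMSO and at 149, 139 and 139 CPM with GSK-A1. PSMB6, with the caspase-like site, was at 113, 110 and 108 CPM with DMSO and at 111, 97.6 and 109 CPM with GSK-A1. In each the groups overlapped, and GSK-A1 replicate 2 was the lowest library. PSMB7, with the trypsin-like site, was at 108, 105 and 106 CPM with DMSO and at 109, 103 and 106 CPM with GSK-A1. The 95% intervals of the change were -6.95% to 5.21% for PSMB5, -10.7% to 2.45% for PSMB6 and -5.84% to 5.43% for PSMB7. PSMB2, which is not catalytic, was among the most abundant members. It was at 243, 239 and 234 CPM with DMSO and at 233, 222 and 224 CPM with GSK-A1. These groups did not overlap, and its log2 change of -0.08 ± 0.04 did not pass (SE; edgeR adjusted p = 0.131).

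In the 19S ATPase ring, 1 of 6 members was called. PSMC3 (ENSG00000165916, chr11:47418769-47426473, minus strand) was at 117, 109 and 108 CPM with DMSO and at 103, 99.3 and 99.3 CPM with GSK-A1, with no overlap. Its log2 change was -0.15 ± 0.04 (SE; edgeR adjusted p = 0.0146), and it was -0.11 without DMSO replicate 1 (edgeR adjusted p = 0.104). The other ATPases ran from -0.08 for PSMC5 to 0.08 for PSMC6, with PSMC4 at -0.05 and PSMC2 at 0.03. The PSMC1 value of -0.04 is uncertain, since 27.8% of its 50-base stretches also occur in PSMC1P1, a pseudogene. Exons of NRDE2 on the opposite strand covered 82.2% of its principal transcript, which adds to the uncertainty if the counting ignored strand.

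No member of the scaffold and ubiquitin receptor list was called: PSMD1, PSMD2 and PSMD4 had log2 changes of -0.07, -0.04 and -0.01. The value of PSMD4 is uncertain, since 21.9% of its 50-base stretches also occur in PIPSL, a processed copy. None of the 8 lid subunits was called either, with values from -0.07 to 0.13. PSMD6, PSMD7, PSMD11 and PSMD13, which help to frame the lid, lay between -0.04 and 0.01, and 50.4% of the principal transcript of PSMD7 was covered by exons on the opposite strand. PSMD3, a lid subunit and the most abundant member by CPM, was at 251, 237 and 235 CPM with DMSO and at 248, 240 and 248 CPM with GSK-A1. PSMD8 was at 243, 234 and 241 CPM with DMSO and at 230, 226 and 229 CPM with GSK-A1. The groups overlapped for PSMD3 and did not for PSMD8, whose log2 change was -0.07 ± 0.03 (SE; edgeR adjusted p = 0.178). PSMD14, the metalloprotease that cuts ubiquitin chains off the substrate, was at 106, 110 and 103 CPM with DMSO and at 115, 119 and 109.6 CPM with GSK-A1. It missed the threshold (0.11 ± 0.04, SE; edgeR adjusted p = 0.0758), and it passed at 0.08 when GSK-A1 replicate 2 was dropped (edgeR adjusted p = 0.0478) and at 0.14 when GSK-A1 replicate 3 was dropped (edgeR adjusted p = 0.0305). PSMD12 had the highest lid value, 0.13 ± 0.06 (SE), through GSK-A1 replicate 2 at 110 CPM beside 92.4 and 92.8 in the other two, and it was at 0.04 when that library was dropped.

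The activators held calls in both directions. PSME4 (ENSG00000068878, chr2:53864067-53970840, minus strand) encodes PA200, an activator that caps the 20S core in the nucleus without ATP. It was at 118, 115 and 116 CPM with DMSO and at 133, 138 and 133 CPM with GSK-A1. Every GSK-A1 library lay above every DMSO library, and the spread within a group was small. The log2 change was 0.21 ± 0.04 (SE; edgeR adjusted p = 0.000748), a rise of 15.7% with a 95% interval of 9.69% to 22.1%, and the call held under all 16 alternative settings, from 0.17 to 0.23.

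PSME3 (ENSG00000131467, chr17:42824385-42843758, plus strand) encodes PA28-gamma (REG-gamma), another nuclear activator that does not need ATP or ubiquitin. It was at 213, 204 and 212 CPM with DMSO and at 187, 191 and 181 CPM with GSK-A1, again with no overlap. Its log2 change was -0.17 ± 0.04 (SE; edgeR adjusted p = 0.00371), a fall of 11.1% (-15.7% to -6.15%), and this call also held under all 16 alternative settings. Chosen after these values were seen, the ratio of PSME4 to PSME3 counts within a library was 0.551, 0.567 and 0.547 in DMSO replicates 1 to 3 and 0.712, 0.722 and 0.734 in GSK-A1 replicates 1 to 3. PSME1 and PSME2, which encode the interferon-responsive PA28-alpha and PA28-beta, had log2 changes of -0.02 and -0.04, and PSMF1, which encodes the 20S-binding protein PI31, -0.01. These 3 genes overlapped between groups.

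Of the 20S assembly chaperones, 1 of 4 was called. PSMG2 (ENSG00000128789, chr18:12658043-12725740, plus strand), which pairs with PSMG1 to build the alpha ring, was at 29.4, 31.7 and 31.1 CPM with DMSO and at 35.1, 35.4 and 35.0 CPM with GSK-A1. The groups did not overlap and the GSK-A1 libraries lay close together. Its log2 change was 0.20 ± 0.05 (SE; edgeR adjusted p = 0.00832), a rise of 14.5% (6.72% to 22.95%). It was not called without DMSO replicate 1 (0.16, edgeR adjusted p = 0.0618), and CEP76 on the opposite strand covered 17.3% of its principal transcript. Its partner PSMG1 had a log2 change of 0.07 ± 0.04 (SE; edgeR adjusted p = 0.238), with 104, 105 and 105 CPM in the DMSO libraries and 108, 116 and 106 in the GSK-A1 libraries. PSMG3 and PSMG4, which form the second chaperone pair, were at -0.03 and 0.0045. The 19S chaperones PSMD9 and PSMD10 were not called, with log2 changes of -0.15 ± 0.06 and 0.03 ± 0.05 (SE).

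**Figure D3:**
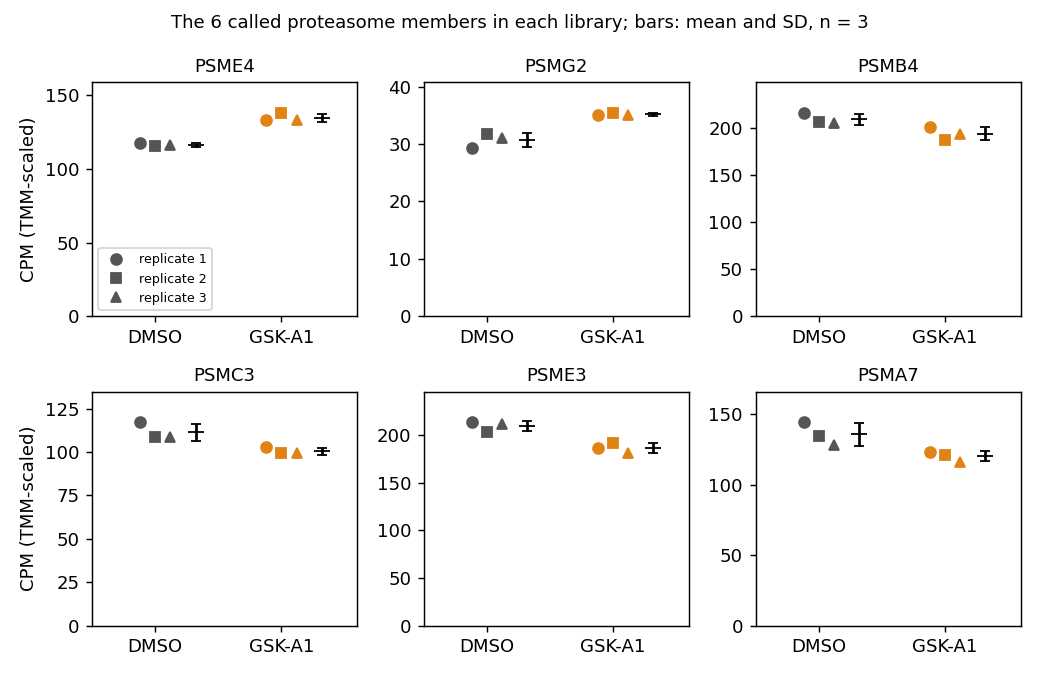
CPM of the 6 called members in each of the 6 libraries, on axes that start at 0, with the mean and SD of each group beside the points (n = 3). PSME4 and PSMG2 are higher in every GSK-A1 library, and PSMB4, PSMC3, PSME3 and PSMA7 lower; the changes run from -11.5% to 15.7%.

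Base composition moved with these values. Across the 42 members, Pearson's r between GC content of the longest transcript and the log2 change was -0.44, and across the 16094 tested genes with a known GC content it was -0.18. The genes share the same 6 libraries, so this is a description. When each library's trend of expression on GC content was removed, PSME3 was still called lower (-0.14) and PSME4 and PSMG2 higher (0.20 and 0.24). PSMA7, at 55.5% GC, then had a log2 change of -0.11 (edgeR adjusted p = 0.103), PSMC3, at 56.2% GC, -0.08 (edgeR adjusted p = 0.121), and PSMB4, at 48.2% GC, -0.09 (edgeR adjusted p = 0.0632). PSMD14 was at 0.06 (edgeR adjusted p = 0.252). In that fit PSMA1 was called higher (0.15, edgeR adjusted p = 0.0425), so 3 members were higher and 1 lower.

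Promoter sequence was read beside these values, because NFE2L1 and NFE2L2 bind antioxidant response elements together with small MAF proteins, whose genes changed as described below. RefSeq promoters of 300 bases (GRCh38.p14, 250 before and 50 after the start) were found for 36 members in 44 entries. For 42 of the 44 entries, the end of the sequence was found in a GENCODE 29 transcript of the gene. PSMA7, PSMB1, PSMB6, PSMB7, PSMD4 and PSMG3 had no entry. The core of the element was searched as TGACNNNGC on both strands. It occurred in 29.5% of the members' entries and in 13.3% of all 35116 entries, and it was found for 13 of the 36 members. The 2 members called higher were among these 13 and the 3 members called lower that had an entry were not. The share with a match among all genes called higher or lower was not computed, so this split of few members is only a description. The median log2 change was -0.02 over the 13 and -0.01 over the other 23, and most of the 13 were not called. Matches are shown for the 2 called members and for the 3 uncalled members of highest CPM with a match before the start site, in gene orientation with the match in capitals and 10 flanking bases on each side.

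PSME4, higher: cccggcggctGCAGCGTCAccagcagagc
PSMG2, higher: cagtttcccgTGACCCCGCggccgctctg
PSMD3, not called: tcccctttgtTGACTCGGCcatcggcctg
PSMA4, not called: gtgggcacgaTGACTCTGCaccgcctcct
PSMC5, not called: gaccggatctGCTGTGTCAgcgccgccct

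The PSME4 window lies on the minus strand at chr2:53971009-53971037. Its match opens at -34 from the RefSeq start site and is read on the strand opposite to the gene. In the GENCODE annotation used here PSME4 begins at chr2:53970840 on the minus strand, so that RefSeq start site lies upstream of the annotated gene. The place of the PSME4 match relative to the start site is therefore uncertain. The PSMG2 window lies on the plus strand at chr18:12658689-12658717, with the match at -39. Those of PSMD3 (chr17:39980760-39980788, match at -37), PSMA4 (chr15:78540650-78540678, at -126) and PSMC5 (chr17:63827654-63827682, at -57, read on the strand opposite to the gene) are on the plus strand. A CCAAT box, searched as CCAAT on both strands, was found for 18 of the 36 members (40.9% of their entries against 34.6% of all entries), among them PSMC3 and PSME3, called lower, and none of the members called higher. The ETS core, searched as CCGGAAG, was found for 14 (31.8% against 10.3%), among them PSME4 and none of the members called lower. A match is a description of these letters, not of binding, and for each motif the split by call rests on few members.

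The genes that work with the subunits were read from 3 further lists, chosen with earlier results of these data known. Of 12 genes for proteasome parts and partners under other symbols, 2 were called higher and 2 lower, which is 33.3% of the list beside 22.9% of all tested genes. ADRM1, a ubiquitin receptor of the 19S cap, fell from 102.8 ± 4.3 to 91.5 ± 2.7 CPM (SD, n = 3; log2 -0.17 ± 0.04, SE; edgeR adjusted p = 0.00919). The ADRM1 value was -0.06 after GC correction (edgeR adjusted p = 0.244) and -0.135 without DMSO replicate 1 (edgeR adjusted p = 0.0727). UCHL5, the deubiquitinase that ADRM1 holds on the cap, went the other way, from 87.9 ± 2.6 to 99.9 ± 8.5 CPM (0.18 ± 0.05, SE; edgeR adjusted p = 0.0210). GSK-A1 replicate 2 was the highest library at 109.6 CPM, and the value was 0.11 when it was dropped (edgeR adjusted p = 0.0066) and 0.11 after GC correction (edgeR adjusted p = 0.0298). Leaving out any DMSO library ended the UCHL5 call, with an edgeR adjusted p of up to 0.105. PAAF1, which binds 19S ATPases, fell from 25.7 ± 1.1 to 22.1 ± 1.9 CPM (-0.21 ± 0.06, SE; edgeR adjusted p = 0.0250). That call was lost without DMSO replicate 2 or 3 or GSK-A1 replicate 3, with an edgeR adjusted p of up to 0.135. ZFAND5, a proteasome-binding zinc finger protein, passed narrowly (0.11 ± 0.04, SE; edgeR adjusted p = 0.0433), and 9 of 16 alternative settings ended the call. POMP, the chaperone that completes the core, was at 65.5, 65.4 and 64.9 CPM with DMSO and at 70.0, 76.6 and 65.4 CPM with GSK-A1 (0.11 ± 0.05, SE; edgeR adjusted p = 0.116). Its value was 0.06 when GSK-A1 replicate 2 was dropped (edgeR adjusted p = 0.228), and it passed at 0.17 when GSK-A1 replicate 3 was dropped (edgeR adjusted p = 0.0193). SEM1, a small lid subunit, was at -0.03.

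In the list around NFE2L1, 5 of 9 genes were called higher and 0 lower (9 of 9 were tested, 5 had an unadjusted p under 0.05). Over all tested genes, 12.0% were called higher and 10.9% lower. The list was chosen with earlier results of these data known, so its count of calls is a description and no evidence of an excess. NFE2L1 itself was at 194, 194 and 191 CPM with DMSO and at 196, 185 and 189 CPM with GSK-A1, a log2 change of -0.02 ± 0.04 (SE; edgeR adjusted p = 0.699) whose sign turned to 0.04 with the GC trend removed. The genes of its small MAF partners all rose. MAFF went from 1.32 ± 0.21 to 6.46 ± 0.56 CPM and had the highest value of the list, 2.30 ± 0.13 (SE; edgeR adjusted p = 3.46e-09). MAFK was at 25.8, 25.7 and 25.5 CPM with DMSO and at 38.3, 37.0 and 38.6 CPM with GSK-A1 (0.57 ± 0.05, SE; edgeR adjusted p = 6.31e-07). MAFG was at 66.0, 54.9 and 60.5 CPM with DMSO and at 80.9, 77.4 and 84.0 CPM with GSK-A1 (0.42 ± 0.06, SE; edgeR adjusted p = 0.000211). In each of these 3 the groups did not overlap, and the call held under all 16 alternative settings. DDI2, the protease that cleaves NFE2L1 into its active form, was at 105, 105 and 111 CPM with DMSO and at 125, 130 and 121 CPM with GSK-A1 (0.23 ± 0.04, SE; edgeR adjusted p = 0.000831), with 17.4% of its principal transcript shared with RSC1A1 on the same strand. NFE2L2, which encodes NRF2, was called higher (0.14 ± 0.05 SE, edgeR adjusted p = 0.0365), and 6 of 16 alternative settings ended its call. Among them were upper-quartile factors (0.10, edgeR adjusted p = 0.108) and leaving out any DMSO library, with an edgeR adjusted p of up to 0.164. VCP, NGLY1 and NFE2L3, the first of which extracts NFE2L1 from the endoplasmic reticulum and the next of which removes its sugars, were at -0.02, -0.01 and -0.01.

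Among 8 genes of peptide loading and interferon signalling, ERAP1, a peptidase that trims peptides in the endoplasmic reticulum, was called lower, from 21.9 ± 0.5 to 19.1 ± 1.4 CPM (-0.20 ± 0.06, SE; edgeR adjusted p = 0.0264). This 1 call is 12.5% of the list, beside 10.9% of all tested genes called lower. Leaving out any library but GSK-A1 replicate 2 ended that call, with an edgeR adjusted p of up to 0.118. ERAP1 was not called with DESeq2 either (DESeq2 adjusted p = 0.0693). IRF1 and NLRC5, which regulate genes of antigen presentation, were at -0.04 and 0.09 and were not called.

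**Figure D4:**
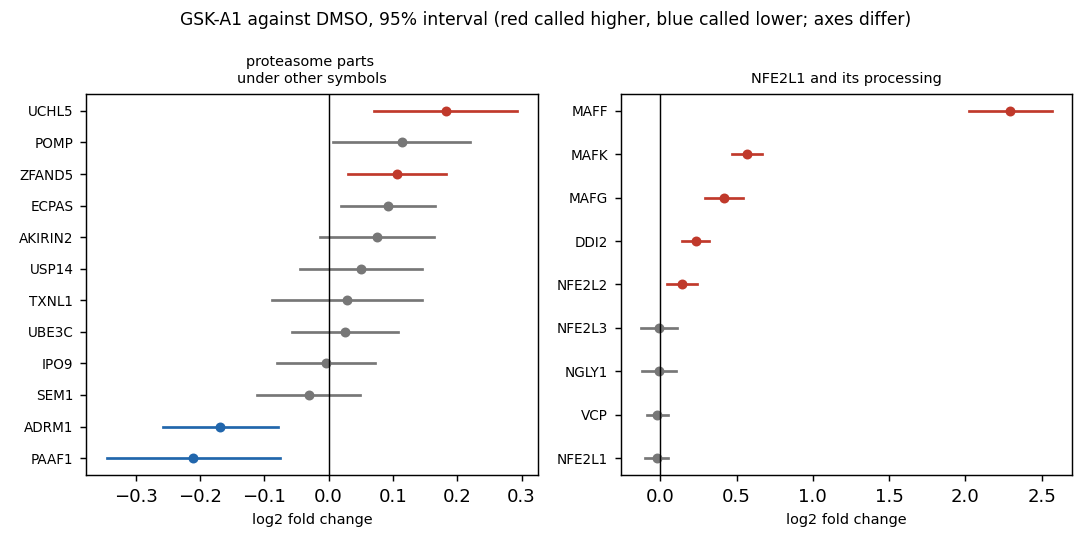
Log2 fold change of GSK-A1 against DMSO with 95% interval for the tested genes of the lists of proteasome parts under other symbols and of NFE2L1 and its processing, on axes that differ between panels; red is called higher and blue lower. MAFF, MAFK and MAFG rose by 2.30, 0.57 and 0.42, while NFE2L1 is at -0.02.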

How the data were processed

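The authors deposited unnormalized read counts, as whole numbers, for 63140 Ensembl identifiers and 6 libraries. Per the labels' protocols, total RNA was made into stranded TruSeq libraries and sequenced on a HiSeq. Per the submitters' processing notes, cutadapt 5.1, STAR 2.7.11b, featureCounts from Subread 2.1.1, DESeq2 1.38.0 and GRCh38.p13 were named; the annotation release, the strand setting and the handling of reads that fall on overlapping genes are not given in the sources used here.

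Groups came from the treatment label. Genes passing filterByExpr (smallest count 10, smallest total 15; 16754 genes, all 42 members among them) were fitted with edgeR 4.0.16 in R 4.3.3: TMM factors, robust dispersions and the quasi-likelihood F test, with p-values adjusted by Benjamini-Hochberg over all genes tested. CPM use the TMM-scaled totals. The SE is the log2 coefficient over the root of F, and intervals are the change ± the 97.5% t quantile times the SE. Errors come from 3 replicates per group. The code was tested on simulated data. With the fitted dispersion trend as the truth, the share of false calls stayed under the threshold, and with noisy gene-wise dispersions as the truth it was above it.

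GC content, exon overlap, shared 50-base stretches and principal transcripts came from GENCODE 29, promoters from RefSeq. Values per library are given for each called member, for PSMB8, PSMB9, PSMB10 and their counterparts, and for the 3 uncalled members of highest CPM; up to 3 called genes are named from each further list. Genes named beyond that rule (among them PSMA1, PSMD12, PSMD14, PSMG1, POMP, ZFAND5, NFE2L1, NFE2L2, DDI2 and the genes given with a single value) were chosen after their values were seen. The members and lists were chosen with earlier results of these data known. Alternatives were other factors and filters, a replicate block, DESeq2 1.42.0, limma-voom (limma 3.58.1), an adjusted p under 0.01, removal of the GC trend, and leaving out each library. Some genes of the further lists are not reported here.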

Additional observations from a re-analysis of the deposited data

How the results depend on the processing

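Of the proteasome members, PSME4 was called higher and PSME3 lower under each alternative tried. Against 4 members called lower in the reported fit, upper-quartile scaling gave 9, removing the GC trend gave 1 and an adjusted p under 0.01 gave 2. The members' median log2 fold change was -0.055 under upper-quartile factors, which moved the median of all tested genes to -0.051. With 1 library left out, the number called higher ranged from 1 (without DMSO replicate 1) to 4 (without GSK-A1 replicate 3), the number called lower from 1 (without DMSO replicate 1) to 4, the members' median from -0.0305 to 0.00347, and the genes called over all from 2163 (without DMSO replicate 1; 2213 and 2206 without replicates 2 and 3) to 4890 (without GSK-A1 replicate 2), against 3835. At an adjusted p under 0.01, 1871 genes were called. The share of all calls that were higher was 62.5% with DESeq2, 64.5% after GC correction and 33.25% after upper-quartile scaling, against 52.3%.

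Signs turned for members near 0. PSMB5 was 0.0298 with the GC trend removed, and leaving out a library gave it -0.0435 to 0.0175, above 0 on dropping DMSO replicate 1 (0.0175) or GSK-A1 replicate 2 (0.00811) or 3 (0.00413). PSMB7 was 0.00107 under RLE factors, 0.00362 with no count filter, 0.00602 with DESeq2 and 0.0267 with the GC trend removed, and leaving out a library gave it -0.0186 to 0.0211, above 0 on dropping DMSO replicate 1 (0.0079) or GSK-A1 replicate 2 (0.0211). PSMD3 was -0.0133 under upper-quartile factors and NFE2L1 0.0369 with the GC trend removed. The cause of these shifts was not tested. With the replicate number as a block, 4127 genes, 3 members higher and 4 lower were called, PSMD14 added at 0.107 (edgeR adjusted p = 0.0455), with a members' median of -0.0145. Deviations of same-numbered libraries from their group means had correlations of 0.011, 0.019 and 0.032. Those of differently numbered libraries ran from -0.033 to 0.012. The labels do not pair the libraries, so the block is not used. Restricted to the 37 members without same-strand overlap of the principal transcript, chosen after seeing the data, 2 were higher and 4 lower. The 6 rows under the count minimum had 0 to 11 counts per library, which allow no comparison.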

Other observations

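The symbol pattern left 38 rows that begin with a proteasome subunit's name, mostly pseudogenes and antisense RNAs. Of these, 8 were tested and 2 were called, where 22.9% of all tested genes were called. PSMG3-AS1, an RNA antisense to the chaperone gene PSMG3, was at 4.53, 4.59 and 4.47 CPM with DMSO and at 3.11, 2.99 and 2.94 CPM with GSK-A1. All GSK-A1 libraries were below all DMSO libraries, and the log2 change was -0.59 ± 0.10 (SE; edgeR adjusted p = 0.000647), while PSMG3 itself was at -0.03. PSMC3IP, a meiotic recombination factor named for its binding to the ATPase PSMC3, was at 43.4, 45.6 and 47.7 CPM with DMSO and at 51.7, 49.5 and 53.3 CPM with GSK-A1 (0.18 ± 0.05, SE; edgeR adjusted p = 0.0140), while PSMC3 was called lower. PSME3IP1, which encodes a protein that binds the activator PSME3, had a log2 change of -0.05 ± 0.04 (SE; edgeR adjusted p = 0.402). These genes were chosen after their values were seen.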
